A study of Mus musculus with 3 samples.

Results

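The 10 genes Dusp1, Dusp2, Dusp3, Dusp4, Dusp5, Dusp6, Dusp7, Dusp10, Dusp16 and Dusp22, all of which encode dual-specificity phosphatases that act on MAP kinases or on their pathway, were followed by name through 3 RNA-seq libraries of mouse monocytes and their descendants. They were 10 of the 22238 genes that all 3 libraries list, and all 10 were found by gene symbol. The libraries came from wild-type C57BL/6J female mice, 10 to 12 weeks old, with experimental autoimmune encephalomyelitis (EAE), a model of multiple sclerosis induced with a myelin oligodendrocyte glycoprotein peptide in complete Freund's adjuvant and 250 ng of pertussis toxin given at 2 and 24 h. Cells were sorted 14 to 15 days after immunization, so that every group carried the disease and no group of healthy mice entered the comparison. Bone marrow (BM) monocytes were flushed, enriched with a monocyte isolation kit and sorted as Ly6Chi cells that carried CD45 and CD11b and lacked Ly6G and CD11c, from 13 mice pooled over 2 experiments. Spinal cord (SC) monocytes were released by collagenase D digestion at 37 °C and sorted as Ly6Chi cells positive for CD45, CD11b and CD64 and negative for Ly6G. Monocyte-derived antigen-presenting cells (APCs) came from the same SC digests and the same gate with Ly6C low or negative, each SC population was pooled from 18 mice over 3 experiments, and cells with intermediate Ly6C were left out. A single label field of the APC library names bone marrow as the source, while its title and tissue label name the spinal cord, and it was taken as SC.

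Each group was thus 1 pooled library, with 33280643 assigned reads for BM monocytes, 27283795 for SC monocytes and 28209589 for APCs, and sets of 3 values below keep this order. No difference below has a replicate check and no p-value is given. Levels are TPM, a measure of transcript abundance that divides reads by effective length and by the library's total, rescaled to sum to 1000000 over the 22238 common genes. Fold changes are of reads scaled by size factors, with a 98% interval that covers counting error only. A gene was called higher or lower when that interval lay wholly beyond 2-fold and its level was over 3 TPM in at least 1 of the 2 libraries. In pooled bulk libraries, fewer cells of a type and less RNA per cell cannot be told apart.

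The identity of the sorted cells was checked first on marker genes, some of which encode the gated antigens. All 8 monocyte markers examined were over 3 TPM in each library. Ly6c2, a gene of the gated Ly6C antigen, had 5205, 3602 and 1067 TPM. Ccr2 fell in the same order (1629, 299 and 139 TPM), but Csf1r rose (374, 676 and 1134 TPM). In SC against BM monocytes Csf1r and Fcgr1 were called higher and Ccr2 lower, beside 13.6% and 11.0% of all genes, respectively. Fcgr1 encodes CD64, which was gated on in the spinal cord sorts but not in that of bone marrow. In APCs against SC monocytes Cx3cr1 was called higher and Ly6c2, Ccr2 and Plac8 lower, beside 1.94% and 1.66% of all genes. The summed level of 6 antigen-presentation markers, led by the class II gene H2-Ab1, was 173, 5418 and 12836 TPM, and of these only Itgax encodes a gated antigen (CD11c, gated against in bone marrow). All 6 were called higher in SC than in BM monocytes (median log2 fold change 6.47), beside 13.6% of all genes, and only 4 were over 3 TPM in BM monocytes. In APCs against SC monocytes 4 (H2-Ab1, H2-Aa, H2-Eb1 and Itgax) were called higher, with a median of 1.29, beside 1.94% of all genes. All 3 populations thus carried the monocyte markers. The antigen-presentation markers were already high in SC monocytes, and their sum was highest in APCs. Markers of other cell types stand with the results below.

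MAP kinases (ERK, JNK and p38) are switched on by phosphorylation of a threonine and a tyrosine in their activation loop, and dual-specificity phosphatases switch them off by removing both phosphates. The typical MAP kinase phosphatases fall into nuclear enzymes that are induced as immediate early genes, cytoplasmic enzymes that prefer ERK, and enzymes that prefer JNK and p38, while the small atypical members lack the MAP kinase binding domain. In macrophages, Dusp1 in particular is known as a brake on p38 and JNK and on cytokine production after Toll-like receptor stimulation. Several of these genes are themselves transcribed in response to MAP kinase signalling and so form negative feedback loops.

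The stretches before the transcription start are shown for the 5 genes whose promoter held a searched motif upstream of the start. Of these, 4 (Dusp1, Dusp2, Dusp5 and Dusp16) were higher in SC than in BM monocytes and Dusp22 was lower. The promoters of Dusp3, Dusp6, Dusp7 and Dusp10 held none of the searched motifs, and of these genes Dusp6 and Dusp10 were called higher and Dusp7 lower. The RefSeq promoter table (GRCm38.p6, 250 bases before to 50 after the start) held an entry for 9 of the 10 genes, and Dusp4 had none. Sequences run 5′ to 3′ on the strand of the gene, with motif matches in capitals and their flanks in lower case. None of the stretches overlaps an exon of the 10 genes in the GENCODE annotation. Dusp1 is from chr17:26508563-26508693 on the minus strand, Dusp2 from chr2:127336020-127336085 on the plus strand, Dusp5 from chr19:53529033-53529104 on the plus strand, Dusp16 from chr6:134792669-134792728 on the minus strand and Dusp22 from chr13:30659809-30659859 on the plus strand.
Dusp1: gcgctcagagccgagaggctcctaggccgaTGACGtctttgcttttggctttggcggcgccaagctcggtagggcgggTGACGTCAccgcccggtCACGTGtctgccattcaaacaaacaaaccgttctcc
Dusp2: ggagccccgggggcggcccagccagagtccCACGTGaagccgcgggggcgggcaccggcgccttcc
Dusp5: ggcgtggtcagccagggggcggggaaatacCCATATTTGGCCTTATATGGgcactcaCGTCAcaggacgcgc
Dusp16: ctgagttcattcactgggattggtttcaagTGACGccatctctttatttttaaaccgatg
Dusp22: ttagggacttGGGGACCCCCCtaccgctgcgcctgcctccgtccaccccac
In these lines the Dusp1 promoter carries the short form of the cyclic AMP response element (TGACG) at bases -191 to -187, a full element (TGACGTCA) at -143 to -136 and an E-box (CACGTG) at -126 to -121, counted from the start with -1 as the last base before it. The Dusp5 stretch holds a pair of adjacent CArG boxes, the element that serum response factor binds, at -82 to -73 and -72 to -63, followed by a short form on the other strand at -55 to -51. Dusp16 has the short form alone at -70 to -66, Dusp2 has an E-box at -109 to -104, and the capitals of Dusp22 are a pair of overlapping matches to the NF-kB site between -240 and -230.

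Among all 32851 promoters of the table, searched on both strands, the full cyclic AMP response element was found in 1.79%, the CArG box in 1.63%, the NF-kB site in 5.80% and the E-box in 7.15%. The short form is contained in the full element and was more common, in 20.8% of all promoters and in 4 of the 9 members (Dusp1, Dusp2, Dusp5 and Dusp16; in Dusp2 it lies after the start, at 6 to 10). The AP-1 site (TGANTCA, in 7.81% of promoters) and the letters TATAAA (13.6%) were in none of the 9. The member promoters were rich in G and C, with a median of 68.7% against 52.7% over the table. These matches describe the windows and were not tested as binding sites.

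Between bone marrow and spinal cord monocytes, most of the phosphatase genes differed by more than 2-fold. Dusp1, Dusp2, Dusp4, Dusp5, Dusp6, Dusp10 and Dusp16 were called higher in spinal cord monocytes, Dusp7 and Dusp22 were called lower, and Dusp3 was not called. Of all 10072 genes over 3 TPM in either monocyte library, 13.6% were called higher and 11.0% lower, against 7 and 2 of the 10 phosphatase genes. The median log2 fold change of the 10 genes was 2.73, and that of all 10072 genes was -0.17. Only 6 of the 10 were over 3 TPM in bone marrow monocytes, and all 10 were in both spinal cord libraries, so that 4 genes (Dusp4, Dusp5, Dusp10 and Dusp16) entered the comparison through the spinal cord library alone and a higher value there was built into their entry. The calls rest on counting error. If replicates are assumed to vary with a coefficient of variation of 0.2, Dusp1, Dusp7 and Dusp22 lose their calls, and at 0.4 Dusp6 does as well, while Dusp2, Dusp4, Dusp5, Dusp10 and Dusp16 keep theirs.

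**Figure D1:**
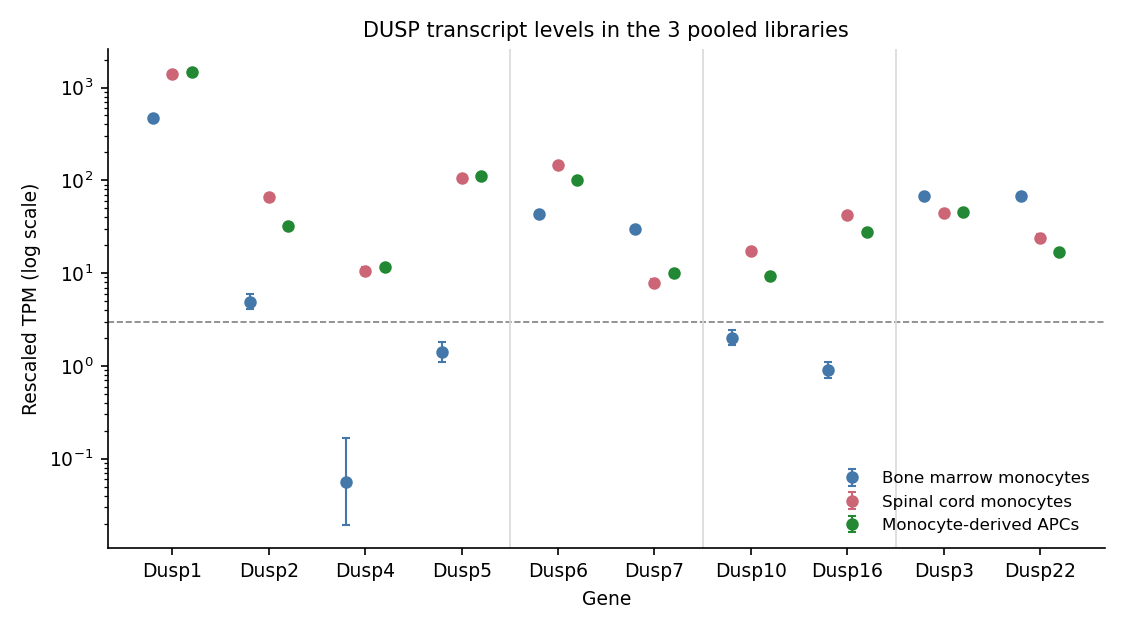
Rescaled TPM (log axis) of the 10 genes in the 3 libraries, grouped from left to right into nuclear inducible, cytoplasmic ERK-directed, JNK- and p38-directed and atypical members, with 95% Wilson intervals for counting error and a dashed line at 3 TPM. Dusp4, Dusp5, Dusp10 and Dusp16 lie under the line in bone marrow monocytes and above it in both spinal cord libraries, while Dusp7, Dusp3 and Dusp22 are highest in bone marrow.

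Dusp1, the nuclear phosphatase of p38 and JNK, was by far the most abundant of the 10 in every library. It had 14834, 41245 and 44756 reads, or 466, 1383 and 1459 TPM. By TPM it ranked 320th, 125th and 105th of all common genes in the same order. The spinal cord libraries were both high and the bone marrow library low. Scaled reads rose 3.82-fold between the monocyte populations, or 1.94 on the log2 scale (98% interval 1.90 to 1.97), whereas the log2 ratio of its TPM was 1.57.

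Dusp2, a nuclear phosphatase known from activated immune cells, was near the 3 TPM limit in bone marrow monocytes. It had 111, 1646 and 921 reads, or 4.94 TPM (95% Wilson interval 4.10 to 5.94), 66.1 TPM (63.0 to 69.4) and 32.3 TPM (30.3 to 34.5). Spinal cord monocytes stood highest and none of the 3 intervals overlapped. Scaled reads rose 20.3-fold from BM to SC monocytes, which is 4.34 in log2 (98% interval 4.02 to 4.68), while the log2 ratio of TPM was 3.74, with mean effective lengths of 1053 and 1285 bases in these libraries.

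Dusp4, a nuclear phosphatase of ERK and JNK, was almost without reads in bone marrow monocytes. It had 3 reads there, 506 in spinal cord monocytes and 601 in APCs, or 0.0566 TPM (95% Wilson interval 0.0192 to 0.166), 10.6 TPM (9.72 to 11.6) and 11.6 TPM (10.7 to 12.5). The spinal cord intervals overlapped each other and lay far above that of bone marrow. With so few reads in bone marrow the size of the difference is known only loosely, as a ratio of 189.7, or 7.57 on the log2 scale with a 98% interval of 6.11 to 9.73, and the log2 ratio of TPM plus 1 was 3.46.

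Dusp5, a nuclear phosphatase specific for ERK, went from a trace to a level close to that of Dusp6. It had 67, 4564 and 5131 reads, or 1.42 TPM (95% Wilson interval 1.12 to 1.80), 107 TPM (104 to 110) and 111 TPM (108 to 114). Both spinal cord libraries were high and their intervals overlapped, and bone marrow was low. The log2 fold change between the monocyte populations was 6.54 (98% interval 6.14 to 6.97), a 92.8-fold rise with many more reads behind it than that of Dusp4, and the log2 ratio of TPM plus 1 was 5.49.

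The cytoplasmic ERK phosphatases moved in opposite directions. Dusp6, itself a transcriptional target of ERK signalling, had 2104, 6323 and 5210 reads, or 43.5, 146 and 101 TPM, highest in spinal cord monocytes and lowest in bone marrow. Between the monocyte populations it rose by 2.05 on the log2 scale (98% interval 1.96 to 2.13). Dusp7, the other member of this class, had 1819, 415 and 583 reads, or 30.1, 7.80 and 9.94 TPM, highest in bone marrow and lowest in spinal cord monocytes. Its reads fell by 1.67 on the log2 scale (98% interval -1.86 to -1.49). The levels of Dusp6 and Dusp7 were thus 43.5 and 30.1 TPM in BM monocytes and 146 and 7.80 TPM in SC monocytes.

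The phosphatases that prefer JNK and p38 were both low in bone marrow and high in spinal cord. Dusp10 had 109, 846 and 487 reads, or 2.01 TPM (95% Wilson interval 1.67 to 2.43), 17.4 TPM (16.2 to 18.6) and 9.28 TPM (8.49 to 10.1). Dusp16 had 89, 3364 and 2544 reads, or 0.906 TPM (0.736 to 1.12), 41.9 TPM (40.5 to 43.3) and 27.9 TPM (26.9 to 29.0). For each gene spinal cord monocytes were highest, APCs intermediate and bone marrow monocytes lowest, with no overlap of the intervals. The log2 fold change between the monocyte populations was 3.41 (98% interval 3.08 to 3.76) for Dusp10 and 5.69 (98% interval 5.34 to 6.06) for Dusp16, a 51.6-fold rise, and the log2 ratios of TPM plus 1 were 2.61 and 4.49.

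The small atypical members were highest in bone marrow monocytes. Dusp3, which can dephosphorylate ERK and JNK, had 4533, 2669 and 3176 reads, or 67.2, 44.9 and 45.2 TPM. Its spinal cord levels overlapped within their Wilson intervals, and its log2 fold change between the monocyte populations was -0.30 (98% interval -0.39 to -0.22), within 2-fold, beside a log2 ratio of TPM of -0.58. Dusp22, which acts on JNK signalling and on Lck in T cells, had 2477, 627 and 640 reads, or 68.3, 24.2 and 16.9 TPM, and its reads fell by 1.52 on the log2 scale (98% interval -1.67 to -1.37) between the monocyte populations. In bone marrow Dusp3 and Dusp22 were the most abundant of the 10 after Dusp1, and their 95% Wilson intervals, 65.3 to 69.2 TPM and 65.7 to 71.0 TPM, overlapped.

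**Figure D2:**
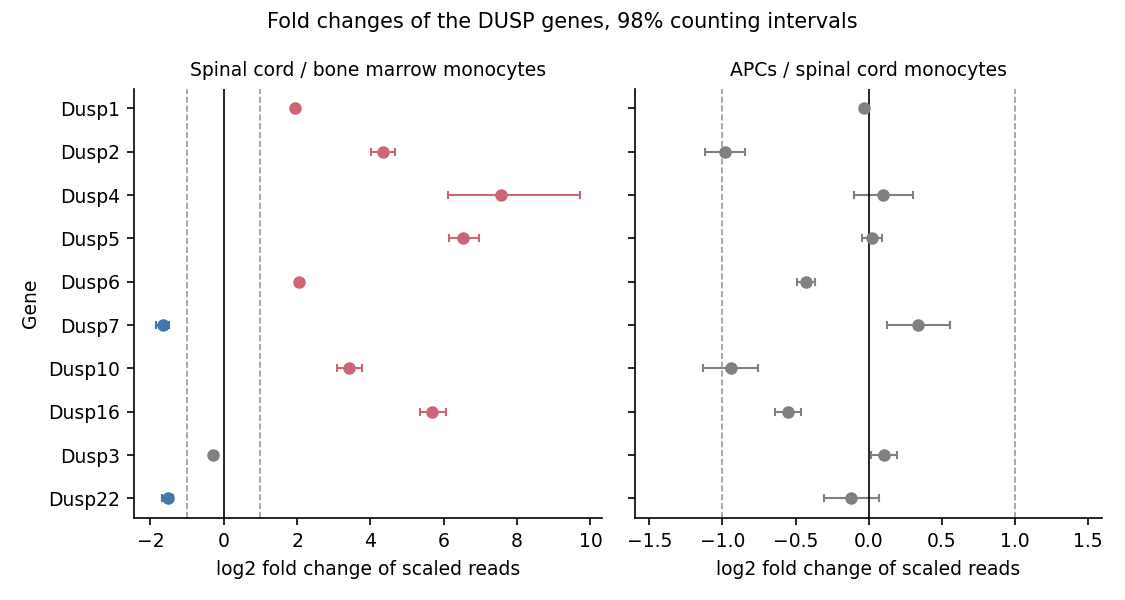
Log2 fold changes of scaled reads for the 10 genes, spinal cord monocytes against bone marrow monocytes on the left and APCs against spinal cord monocytes on the right (the x axes differ in range), with 98% counting intervals and dashed lines at 2-fold. On the left 7 genes are called higher (red) and 2 lower (blue), and on the right all 10 are uncalled (grey).

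Between spinal cord monocytes and APCs, none of the 10 genes was called in either direction, where 1.94% of the 9734 genes over 3 TPM in either spinal cord library were called higher and 1.66% lower. The comparison shares the spinal cord monocyte library with the one before. The log2 fold changes ran from -0.98 to 0.34 with a median of -0.07, beside a median of -0.03 over all 9734 genes. Beside such small shares of all genes, the count of 0 among 10 is no result about the family.

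Several members nevertheless differed between the spinal cord libraries by more than counting error. Dusp2 was lower in APCs by 0.98 on the log2 scale (98% interval -1.12 to -0.85) and Dusp10 by 0.94 (98% interval -1.14 to -0.75), in both cases with the estimate just inside 2-fold, and Dusp2 was called lower when the ratio of TPM plus 1 (-1.01) or plus 0.1 (-1.03) was used instead. Smaller negative values were found for Dusp16, -0.55 (98% interval -0.64 to -0.46), and Dusp6, -0.43 (98% interval -0.49 to -0.36). Dusp7 had the highest value, 0.34 (98% interval 0.13 to 0.56). The 4 lowest values were thus those of the JNK- and p38-directed pair, Dusp2 and Dusp6.

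The remaining members were close to level between monocytes and APCs of the spinal cord. Dusp4 stood at 0.10 on the log2 scale (98% interval -0.10 to 0.30) and Dusp5 at 0.02 (98% interval -0.05 to 0.09), and the interval of each includes 0. Dusp1 stood at -0.03 (98% interval -0.05 to -0.01), a deviation that its large read number resolves but that changed sign under 4 of the 8 other settings that can alter a fold. Dusp3 had 0.10 (98% interval 0.02 to 0.19). For Dusp22 the reads gave -0.12 (98% interval -0.31 to 0.07) and the TPM gave a log2 ratio of -0.52, with a mean effective length, which enters TPM and not the reads, of 1338 bases in SC monocytes and 1818 bases in APCs. The deposited APC file lists fewer genes than the others, 22242 against 54432.

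**Figure D3:**
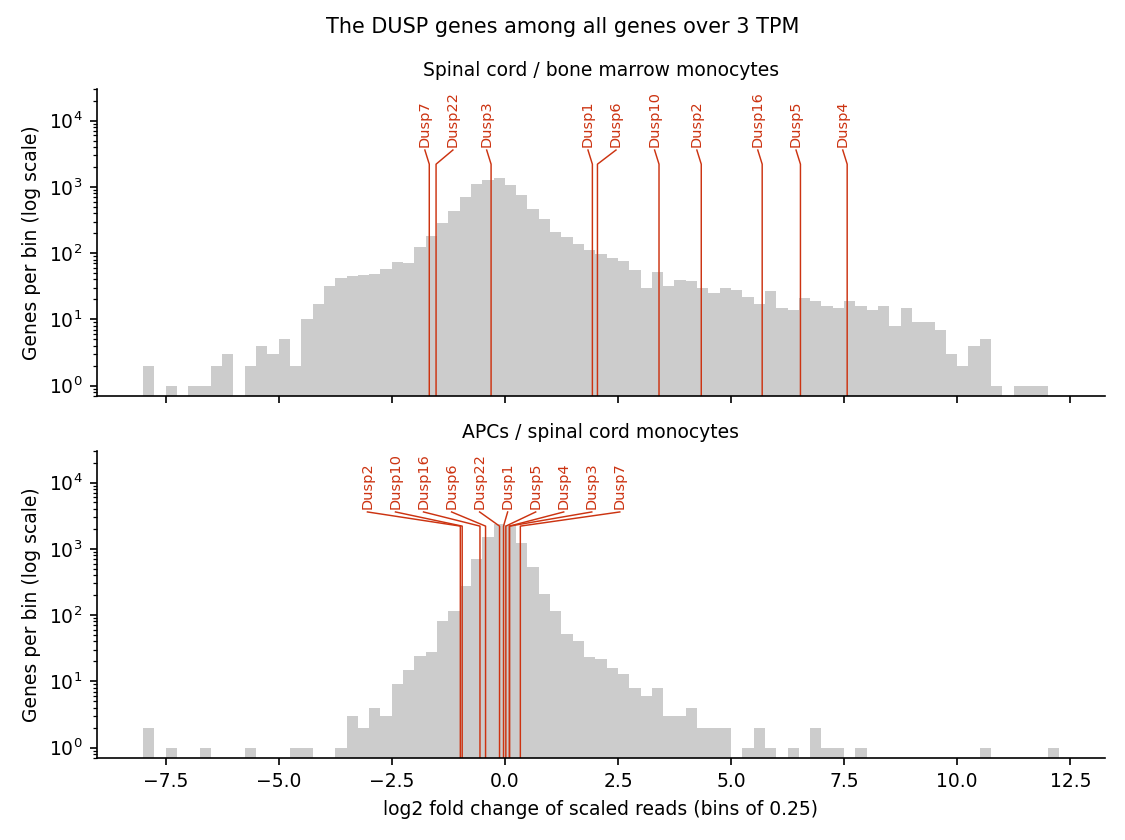
Number of genes (log axis) by log2 fold change of scaled reads for all genes over 3 TPM in either library, 10072 in the comparison of the monocyte populations (top) and 9734 in that of APCs with spinal cord monocytes (bottom), with the 10 genes marked in red and more extreme values gathered in the outermost bins. In the top panel Dusp16, Dusp5 and Dusp4 lie in the thin right-hand tail and Dusp3 near the centre, and in the bottom panel all 10 lie within 2-fold of zero.

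By log2 fold change between the monocyte populations, Dusp4 ranked 122nd, Dusp5 197th, Dusp16 260th and Dusp2 396th from the top of the 10072 genes. At the other end Dusp7 ranked 9418th and Dusp22 9320th. In APCs against spinal cord monocytes, Dusp2 and Dusp10 ranked 9427th and 9390th of 9734, and the top member, Dusp7, ranked 1768th.

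Summed over the family, phosphatase transcripts were 684, 1849 and 1824 TPM. Dusp1 made up 68.1%, 74.8% and 80.0% of these sums, and 56.7%, 66.3% and 69.9% when reads were summed instead of TPM. Without Dusp1 the sums were 218, 466 and 365 TPM, and the 9 genes did not move as 1, since by TPM Dusp3, Dusp4, Dusp5 and Dusp7 were not lower in APCs than in SC monocytes.

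By class, the sums went in different directions. The nuclear inducible genes (Dusp1, Dusp2, Dusp4 and Dusp5) summed to 472, 1567 and 1614 TPM. Dusp1 alone held 466, 1383 and 1459 TPM of this, so the sum mainly follows that gene, and Dusp2 was lower in APCs than in SC monocytes. The cytoplasmic ERK phosphatases summed to 73.6, 154 and 111 TPM, and the JNK- and p38-directed pair to 2.92, 59.2 and 37.2 TPM. The atypical pair went the other way, with 136, 69.1 and 62.1 TPM. In share of the family, Dusp5 held 0.207%, 5.80% and 6.07%, and Dusp22 held 9.98%, 1.31% and 0.927%.

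**Figure D4:**
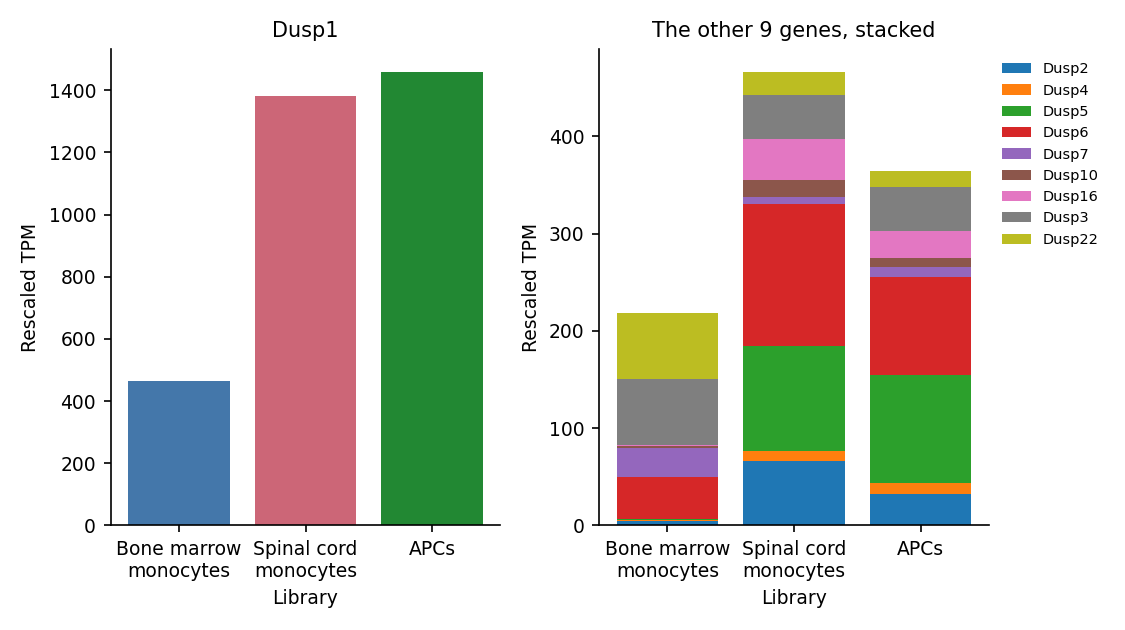
Rescaled TPM of Dusp1 (left) and of the other 9 genes stacked (right) in the 3 libraries, on linear axes that start at 0 and differ in range. Dusp3 and Dusp22 fill most of the bone marrow bar beside Dusp6 and Dusp7, and Dusp5, Dusp6, Dusp2 and Dusp16 fill most of the spinal cord monocyte bar.

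Of 14 further Dusp genes, 5 (Dusp11, Dusp12, Dusp19, Dusp23 and Dusp28) were over 3 TPM in either monocyte library and 4 of them (all but Dusp19) in either spinal cord library, and none was called in either comparison. Beside 13.6% and 11.0% of all genes called in the first and 1.94% and 1.66% in the second, these counts of 0 are no result about them. Their log2 fold changes between the monocyte populations had a median of -0.36. Dusp11, an RNA phosphatase and the most abundant of them, had 82.3, 92.0 and 68.0 TPM. Dusp8, a JNK- and p38-directed relative of Dusp16, had 0, 92 and 90 reads. With 3 reads taken as the floor, this was at least 42.2-fold more in SC than in BM monocytes. Dusp8 had only 1.05 TPM in SC monocytes and 1.10 TPM in APCs, however, and was not called. Dusp15 and Dusp21 had 0 reads in all 3 libraries.

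The kinases that these phosphatases act on, and those above them, are counted beside the shares of all genes, 13.6% called higher and 11.0% lower, and their counts are no result about these lists. Of 8 MAP kinases over 3 TPM, Mapk6 was called higher in SC than in BM monocytes (log2 fold change 1.82) and Mapk14, which encodes p38 alpha, lower (-1.50). Mapk14 had 211, 64.4 and 61.2 TPM. Mapk3, whose kinase is a substrate of Dusp5 and Dusp6, had a log2 fold change of -0.38 and was not called. Among 7 MAP kinase kinases Map2k6, an activator of p38, was called lower (-1.94). Among 16 MAP3 kinases Map3k8, which activates ERK downstream of Toll-like receptors, was called higher (2.04), and Map3k6 (-2.12) and Map3k20 (-1.76) were called lower. The median log2 fold changes of these lists were 0.02 for the MAP kinases, 0.04 for the MAP kinase kinases and -0.46 for the MAP3 kinases, beside -0.17 for all genes.

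Further down the pathway, the shares of all genes called were again 13.6% higher and 11.0% lower. Of 10 kinases activated by MAP kinases 1 was called, Rps6ka1, which was lower (-1.27). Mapkapk2, the p38 target with the highest level, stood at 0.21. None of 6 other phosphatases that act on MAP kinases, among them Ppp2ca (0.56) and Ppp2cb (-0.88), was called. The lists had medians of -0.05 and -0.31, respectively. In APCs against spinal cord monocytes, where 1.94% of all genes were called higher and 1.66% lower, Map2k3 (-1.12) was the only gene called of these 5 lists. Between the monocyte populations, all 4 feedback inhibitors of growth factor and ERK signalling over 3 TPM were called higher, namely Spry2 (1.86), Spred1 (1.22), Spred2 (1.72) and Errfi1 (4.31), with a median of 1.79. Of 7 such genes in the common set, 3 were under 3 TPM in both monocyte libraries, and Spry2 entered through the spinal cord library alone, so the count, set beside 13.6% of all genes, is a description. Of 5 such genes in APCs against spinal cord monocytes, Spry2 was called lower (-1.41), beside 1.66% of all genes called lower.

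**Figure D5:**
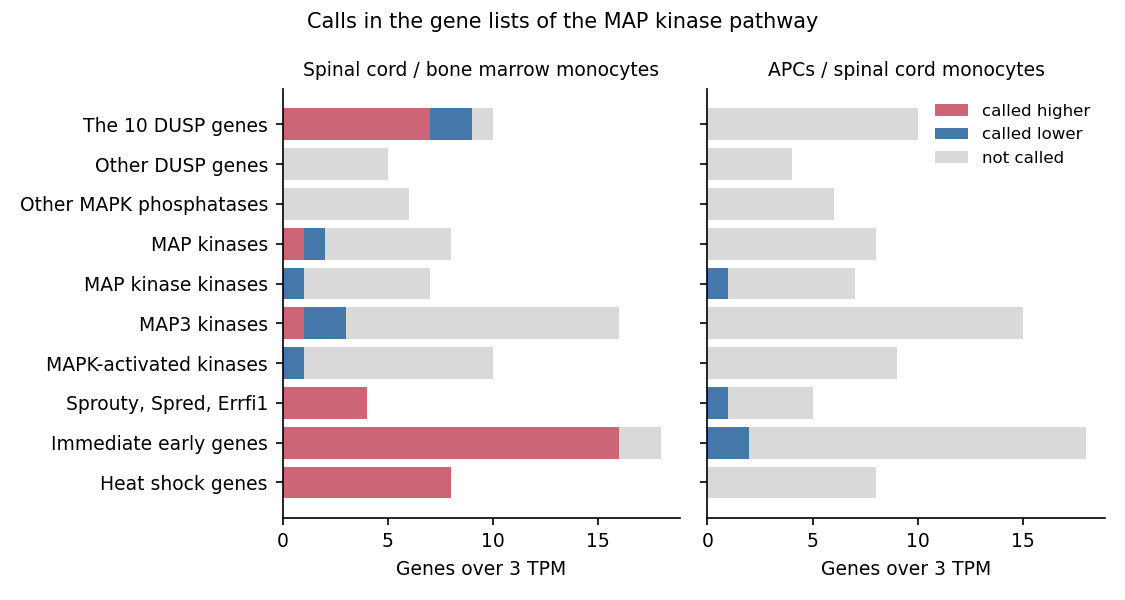
Number of genes over 3 TPM called higher (red), lower (blue) or not called (grey) in the 10 phosphatase genes and in 9 further gene lists, for spinal cord against bone marrow monocytes (left) and APCs against spinal cord monocytes (right). Calls upward on the left gather in the 10 DUSP genes, the feedback inhibitors, the immediate early genes and the heat shock genes.

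Immediate early genes, the class to which the inducible phosphatases belong by their kinetics, and heat shock genes were higher in the same libraries, beside 13.6% of all genes called higher. Of 18 immediate early genes 16 were called higher in SC than in BM monocytes, with log2 fold changes of 8.21 for Egr2 and, from a single read in bone marrow, 8.76 for Egr3 (98% interval 6.77 to 12.26), and Fos (0.70) and Ier2 (0.46) were not called. Of the 18, 15 were over 3 TPM in bone marrow, and Egr2, Egr3, Fosl1 and the heat shock gene Hspb1 entered through the spinal cord library alone, where a higher value is built in. Their median was 2.48, and their summed level was 3572, 12228 and 9560 TPM. All 8 heat shock genes were called higher, with a median of 2.19, sums of 2573, 7396 and 6146 TPM, Hspa8 as the most abundant, and values of 6.66 for Hspa1b and 5.80 for Hspa1a, near-identical copies whose reads may be split between them. In APCs against spinal cord monocytes, Ier5 (-1.07) and Atf3 (-1.05) were called lower and no heat shock gene was called. Of all genes in that comparison, 1.94% were called higher and 1.66% lower. The spinal cord cells were digested with collagenase at 37 °C and the bone marrow cells were not. Tissue and preparation thus cannot be told apart for the 7 phosphatase genes called higher in spinal cord monocytes or for the 2 called lower.

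Markers of other cell types also moved with the comparison. Of 6 T cell markers, 5 were called higher in SC than in BM monocytes, and their summed level was 0.812, 41.3 and 59.7 TPM, with Cd2 the most abundant at 16.7 TPM in APCs and Cd3g at 0 reads in bone marrow. In BM monocytes 0 of the T cell markers and 1 of the microglia markers were over 3 TPM, so the counts called in this comparison, beside 13.6% of all genes, rest mostly on genes that entered through the spinal cord. Microglia markers, led by P2ry12, summed to 12.9, 102 and 266 TPM, and all 6 were called higher in both comparisons (1.94% of all genes in the second, in which all 6 were over 3 TPM in both libraries), with Sall1 at 0 reads in bone marrow. Endothelial markers, led by Pecam1, summed to 10.4, 34.1 and 20.2 TPM, with Cldn5 at 0 reads in bone marrow. Astrocyte markers, led by Gfap, summed to 2.66, 8.06 and 6.97 TPM, and NK cell markers, led by Gzma, to 0.0334, 3.39 and 7.20 TPM. Neuron markers had 0 reads in bone marrow and summed to 0.601 and 0.581 TPM in the spinal cord libraries. Their part in the results for the phosphatase genes was not tested.

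Other marker sums were highest in bone marrow, as Dusp7 and Dusp22 were, and their calls stand beside 13.6% of all genes called higher and 11.0% lower. Neutrophil markers, led by Mmp8, summed to 998, 187 and 411 TPM. Of these, 4 were called lower and 2 (Retnlg and Cxcr2) higher in SC than in BM monocytes. Only 4 were over 3 TPM in BM monocytes. Retnlg and Cxcr2 entered through the spinal cord library alone, where a higher value is built in. Ly6g, the gene of the antigen gated against, had 38, 22 and 24 reads. In APCs against SC monocytes the neutrophil markers Ltf, Ngp and Retnlg were called higher, beside 1.94% of all genes. Myeloid progenitor markers, led by Prtn3, summed to 634, 76.7 and 65.6 TPM, with 4 called lower and Cd34 higher. In BM monocytes 5 were over 3 TPM and in SC monocytes 3, so some lower calls rest on genes that entered through bone marrow alone. Conventional dendritic cell markers summed to 38.1, 8.95 and 18.8 TPM, of which Flt3, called lower in SC monocytes, held 37.8 TPM in bone marrow. Clec9a was called higher but entered through the spinal cord library alone. B cell markers, led by Cd79b, summed to 8.69, 3.52 and 3.79 TPM. Oligodendrocyte markers, led by Mbp, summed to 73.1, 54.7 and 53.1 TPM. Their part in the lower values of Dusp7 and Dusp22 was not tested.

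By scaled reads, Dusp4 and Dusp5 had the largest log2 fold changes between the monocyte populations. Genes whose pattern over the 3 libraries was most like theirs were found by the distance between pairs of log2 fold changes. The search took in 561 genes with the same libraries over 3 TPM. For Dusp5 the nearest were C3ar1, the receptor of complement C3a (distance 0.0755), Pdgfa (0.262) and Tcf7l2 (0.284). C3ar1 had 1.37, 108 and 109 TPM, beside 1.42, 107 and 111 TPM of Dusp5. For Dusp4 they were Bcl2a1d (0.187), Htra4 (0.203) and Hspb1 (0.238), of which Htra4 had 0 reads and Hspb1 1 read in bone marrow. With 3 reads of Dusp4 itself there, the order of its neighbours is not resolved. Each distance rests on 2 fold changes that share a library and is a description only.

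On the genome (GRCm38, GENCODE annotation), the 10 genes lie on 10 different chromosomes. Dusp1 is annotated at chr17:26505590-26562128 on the minus strand, a span that includes a long isoform and overlaps Ergic1 on the opposite strand, which had 587, 829 and 1361 reads beside the 14834, 41245 and 44756 of Dusp1. Dusp10, at chr1:184013302-184075636, overlaps 1700056E22Rik on the opposite strand, with 19, 34 and 17 reads. Whether the counting used strand is not given in the sources used here, so reads of such partners may not be told apart, but in every library the partner had fewer reads than the phosphatase gene. Dusp5 is at chr19:53529109-53542431, Dusp4 at chr8:34807297-34819894 and Dusp16 at chr6:134715468-134792625, of which Dusp4 and Dusp5 have a single annotated transcript and Dusp16 has 7. Dusp2 is at chr2:127336159-127338376, Dusp6 at chr10:99263231-99267489, Dusp7 at chr9:106368632-106375724, Dusp3 at chr11:101971143-101987013 and Dusp22 at chr13:30659999-30711231.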

How the data were processed

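Each population was sequenced as 1 pooled library (300 ng RNA, 11 PCR cycles, HiSeq, paired ends), after sorting as described above. Per the labels and methods, the authors quantified reads with Salmon 0.14.1 on GENCODE transcripts of the mm10 mouse genome and deposited, per gene, estimated counts, TPM and effective lengths. The APC file lists 22242 genes and the others 54432, and 96.7% of the APC genes are protein coding in the GENCODE M21 annotation, so the 22238 common genes were used and the deposited TPM values were rescaled to sum to 1000000 over them. Estimated counts were rounded.

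Fold changes were medians of gamma posteriors with 1 read added to each count, after median-of-ratios size factors for each pair of libraries, with percentiles 1 and 99 as a 98% interval. A call required an interval beyond 2-fold and over 3 TPM in either library. The definition of the fold and its interval follows the generalized fold change that the study's methods name, and was tried on simulated data with counting error alone. The genes scored there had more reads in the reference library than Dusp4, Dusp5 or Dusp16 had in bone marrow. That trial thus does not cover folds from such low counts or variation between replicates. The limit of 3 TPM departs from those methods, whose limit of 2 for log2 TPM is read here as 4 TPM. With 4 TPM the counts of called members were the same in both comparisons. Intervals, including 95% Wilson intervals of TPM, take in the error of counting alone, because each group was 1 library. Reads copied by PCR are not separate molecules, so the intervals may be too narrow even for that error. Library totals were 27283795 to 33280643 reads, and 3 reads were taken as the floor.

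The 10 genes and the 22 other gene lists, 13 of them cell type markers, were chosen with earlier results of these data known. Genes named from other lists were among the 4 highest in TPM or the 2 largest in fold change of their list, or were its few called genes, apart from Dusp8, Dusp15, Dusp19, Dusp21, Fosl1, Ier2 and Ly6g, which were chosen after their values were seen. Some genes of these lists are not reported here. The 3 most alike genes were found for the 2 members with the largest fold changes of scaled reads. The alternatives tried were total reads, TMM factors (edgeR 4.0.16), reads per effective length, all genes of the monocyte libraries, other priors, percentiles, TPM limits and pseudocounts, assumed coefficients of variation, and omission of ribosomal, mitochondrial and Gm-numbered genes. Analyses ran in Python 3.11.15 with numpy 2.4.6, pandas 2.3.3 and scipy 1.17.1.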

Additional observations from a re-analysis of the deposited data

How the results depend on the processing

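No paired analysis was possible because each group was 1 library, and no library could be left out for the same reason. Of 15 alternatives for spinal cord against bone marrow monocytes and 14 for APCs against spinal cord monocytes, 9 and 8 can alter a fold. Under these every member kept its direction, except Dusp1 in the second, which changed sign in 4 of 8 (total reads, effective length and both TPM pseudocounts; range -0.03 to 0.16). With an assumed coefficient of variation of 0.2 between replicates, Dusp1 lost its higher call and Dusp7 and Dusp22 their lower calls (0 members called lower). With 0.4, Dusp6 lost its call as well and 0 were called lower. Dusp4, whose 3 bone marrow reads limit its size, ranged from 3.46 (TPM plus 1) to 7.78.

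The median of the 10 genes in the first comparison, 2.73, was 2.50 with all genes of the monocyte libraries, 2.17 with TPM plus 1 and 2.40 with TPM plus 0.1. In the second, -0.07 became -0.18 with reads divided by effective length, -0.24 with TPM plus 1 and -0.25 with TPM plus 0.1, and under the last 2 settings 1 member, Dusp2, was called lower. Scaling by total reads shifted all values of the first comparison by -0.16, and size factors from genes over 3 TPM, an alternative chosen after seeing the data, by 0.18. The cause of these moves was not tested, apart from the setting itself.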
